A study of Homo sapiens with 15 samples.

Results

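Transcripts were followed in cells labelled U2OS, a human osteosarcoma line with intact p53, given Nutlin or its solvent DMSO in 3 cell cycle states. They were those of the replication clamp PCNA, of the proteins that load it onto DNA and take it off, and of a small PCNA-associated factor. The set is defined by name. It holds 9 of the 23368 genes in the deposited table: PCNA, RFC1, RFC2, RFC3, RFC4, RFC5, CHTF18, ATAD5 and KIAA0101. All 9 were found under these symbols, and all 9 were among the 14298 genes tested after a filter on low values. KIAA0101 is an older symbol of PCLAF.

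PCNA forms a ring of identical subunits around DNA and holds DNA polymerases, the flap nuclease FEN1 and DNA ligase at the growing strand. It is also a classical p53-induced gene, as are CDKN1A and MDM2. Replication factor C opens and closes the ring with ATP. RFC1 is its large subunit, and RFC2, RFC3, RFC4 and RFC5 are the small subunits shared by all loaders of this family. CHTF18 takes the place of RFC1 in the loader linked to sister chromatid cohesion. ATAD5 takes it in the complex that unloads PCNA after replication. KIAA0101 encodes a disordered protein that binds PCNA and is known from proliferating cells.

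The groups were Nutlin asynchronous (3 libraries), DMSO asynchronous (3), Nutlin non-released (2), DMSO non-released (2), Nutlin S-phase (2) and DMSO S-phase (3). Nutlin blocks the binding of MDM2 to p53, so that p53 accumulates; its dose, whose unit prefix is lost in the labels, is read as 10 µM. Non-released and S-phase cells had both gone through 2 blocks of 16 h in 2 mM thymidine, separated by 8 h without it. Thymidine excess stops replication at the border of G1 and S phase. Nutlin or DMSO was added 4 h before release, or before the same time in cells kept under the block. Harvest of S-phase cells followed 4 h later, still in Nutlin or DMSO. For asynchronous cells the duration of Nutlin is not stated in the labels. Whether replicates came from separate cultures is not stated in the labels, and the p-values therefore cover the spread between libraries alone, which may be technical. As this is bulk RNA, fewer cells in a phase and less RNA per cell cannot be told apart in any result that follows.

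Libraries held 6.05 to 23.38 M reads in genes, as recovered from the deposited values. The members had between 313 reads (RFC4) and 12941 reads (PCNA) in a library. CDKN1A and MDM2, which Nutlin induces through p53, checked the labels. CDKN1A had log2 values of 13.51 to 14.17 in the 7 Nutlin libraries, against 11.45 to 12.53 in 7 of the 8 DMSO libraries. In the library labelled DMSO asynchronous replicate 3 it had 14.10, and MDM2 had 14.77, above the 14.55 to 14.71 of the Nutlin asynchronous libraries. That library also held 42913 summed normalised reads of 16 epithelial marker genes, against 12602 to 17655 in the other libraries, and 15 of the 16 were highest there. KRT8 and KRT18 were abundant in all libraries, while KRT19 had 7826 normalised reads there against at most 33.9 elsewhere. Of 12 luminal breast markers, 10 were highest there, with ESR1 at 1434 normalised reads against at most 22.6 elsewhere. Of 12 bone and mesenchymal markers, TWIST1 was at 0 in all libraries and COL1A2 had at most 8.7 normalised reads. The sum over the 12 ran from 60492 in the library labelled DMSO asynchronous replicate 3 to 89228 in DMSO S-phase replicate 2. COL1A1 had 9927 normalised reads in DMSO S-phase replicate 2, against 1746.5 to 3697 in the other libraries. The 8 blood markers summed to at most 131. DMSO S-phase replicate 2 was the shallowest library, at 6.05 M reads, and, beside the library labelled DMSO asynchronous replicate 3, correlated least with its own group. Results are therefore given from all 15 libraries and, where the value or call differs, from the 13 without these 2 libraries. The library labelled DMSO asynchronous replicate 3 was set apart partly by its CDKN1A and MDM2 levels. For those genes, and for calls with Nutlin in asynchronous cells, the values without it are therefore a description. The part of either library's makeup in any result was not tested.

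Promoter sequences are shown for PCNA, which rose with Nutlin, for KIAA0101 and RFC4, which rose under the block, and for RFC3, because of the motifs in it. They are the 250 bases before a RefSeq transcription start (GRCh38.p14), 5′ to 3′ on the strand of the gene; the deposited table was made on hg19. Of the 9 members, 8 matched, with 10 windows, and ATAD5 did not. Capitals mark matches on either strand to the E2F motif (TTTCCCGC, TTTCGCGC, TTTGCCGC or TTTGGCGC), the CCAAT box (CCAAT) and the p53 decamer, the unit of 10 letters that p53 elements repeat. The cell cycle homology region (TTTGAA) was also searched and is in none of these windows.
PCNA, first start, chr20:5126623-5126872, minus strand: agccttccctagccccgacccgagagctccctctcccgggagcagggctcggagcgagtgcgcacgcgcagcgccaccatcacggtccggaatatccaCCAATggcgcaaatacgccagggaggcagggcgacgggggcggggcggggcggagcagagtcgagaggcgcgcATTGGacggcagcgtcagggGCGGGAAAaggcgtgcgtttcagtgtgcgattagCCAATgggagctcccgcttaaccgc
PCNA, second start, chr20:5119959-5120208, minus strand: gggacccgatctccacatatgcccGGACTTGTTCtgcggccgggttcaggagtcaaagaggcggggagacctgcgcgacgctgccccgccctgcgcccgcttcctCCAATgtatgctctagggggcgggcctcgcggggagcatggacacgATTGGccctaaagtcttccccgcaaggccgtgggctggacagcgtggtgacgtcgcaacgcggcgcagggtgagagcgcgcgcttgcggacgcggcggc
KIAA0101, first start, chr15:64387688-64387937, minus strand: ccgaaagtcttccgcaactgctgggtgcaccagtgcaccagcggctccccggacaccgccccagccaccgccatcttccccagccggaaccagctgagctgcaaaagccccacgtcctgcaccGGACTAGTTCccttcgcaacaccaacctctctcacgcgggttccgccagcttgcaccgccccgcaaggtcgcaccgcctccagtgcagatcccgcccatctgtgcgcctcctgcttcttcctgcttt
KIAA0101, second start, chr15:64381442-64381691, minus strand: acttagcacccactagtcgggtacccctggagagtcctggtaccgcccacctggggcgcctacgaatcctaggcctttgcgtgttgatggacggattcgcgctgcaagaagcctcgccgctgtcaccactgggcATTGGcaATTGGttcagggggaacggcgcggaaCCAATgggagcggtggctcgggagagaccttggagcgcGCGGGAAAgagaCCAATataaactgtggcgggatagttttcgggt
RFC3, chr13:33817899-33818148, plus strand: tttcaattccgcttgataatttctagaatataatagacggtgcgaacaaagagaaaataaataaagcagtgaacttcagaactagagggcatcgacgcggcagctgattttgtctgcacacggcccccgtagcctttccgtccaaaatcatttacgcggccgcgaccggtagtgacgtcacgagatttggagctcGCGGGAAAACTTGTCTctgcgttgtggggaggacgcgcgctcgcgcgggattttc
RFC4, chr3:186806483-186806732, minus strand: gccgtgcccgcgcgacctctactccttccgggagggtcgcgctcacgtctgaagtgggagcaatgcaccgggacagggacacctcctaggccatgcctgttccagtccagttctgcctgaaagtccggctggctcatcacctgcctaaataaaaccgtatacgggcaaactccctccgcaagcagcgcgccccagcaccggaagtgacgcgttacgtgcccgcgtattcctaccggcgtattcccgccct
The first PCNA window holds 1 E2F match at 59 to 52 bases before the start and 3 CCAAT boxes. The second PCNA window holds 2 CCAAT boxes and 1 p53 decamer match, GGACTTGTTC, at 226 to 217 bases before its start. The second KIAA0101 window holds 1 E2F match and 4 CCAAT boxes, and the first holds 1 decamer match, GGACTAGTTC. In RFC3 an E2F match and a decamer match overlap by the letters at 49 and 48 bases before the start. The RFC4 and RFC2 windows hold no match, RFC1 and RFC5 hold 1 CCAAT box each, and CHTF18 holds 3. Among 35116 RefSeq windows of the same length, 2.8% hold the E2F motif, 32.0% a CCAAT box, 13.3% the cell cycle homology region and 5.6% a p53 decamer. A match describes letters only and shows no binding, and neither does the lack of a match show its absence.

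PCNA was the most abundant transcript of the set per length of exon. Its median over the 15 libraries was 4045 normalised reads per kb, with a range of 2517 to 6523. KIAA0101 came next, with a median of 1674 and a range of 904 to 2344 normalised reads per kb, so PCNA was above it in every library. The replication factor C subunits lay lower, with medians of 781 (RFC2), 762 (RFC1), 725 (RFC4), 541 (RFC5) and 483 (RFC3) normalised reads per kb. The ranges of RFC2, RFC1 and RFC4 overlapped, as did those of RFC5 and RFC3, while the lowest library of RFC1, at 623, was above the highest of RFC3, at 549. The lengths used are unions of GENCODE v29 exons, while the annotation behind the reads is not given. The order between genes therefore rests on that choice of length, and other lengths were not tested. The subunits of the alternative complexes were the lowest. CHTF18 had a median of 247 and ATAD5 of 198 normalised reads per kb, and the highest library of CHTF18, at 286, was under the lowest of RFC3, at 364. Across the libraries PCNA varied by 1.36 on the deposited log2 scale between its lowest and highest value, KIAA0101 by 1.35 and RFC4 by 1.11. RFC1 varied by 0.38, the least of the 9.

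**Figure D1:**
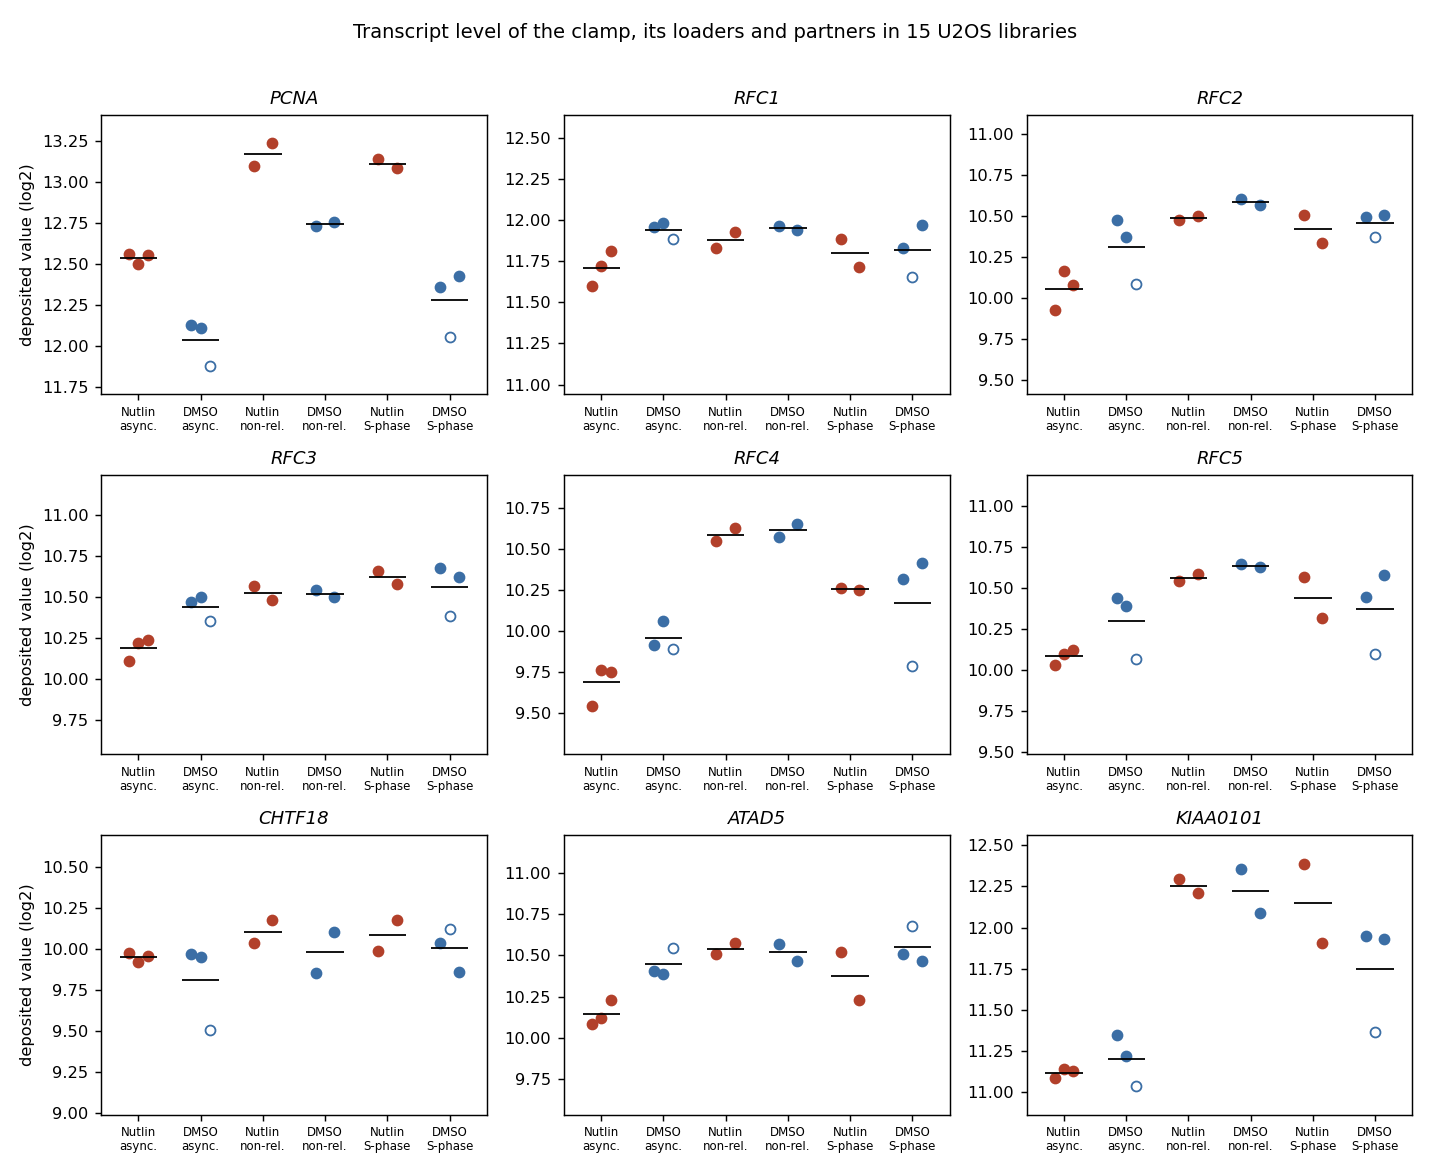
Deposited log2 values of the 9 genes in each library (points) and group means (lines), with Nutlin in red, DMSO in blue, async. for asynchronous and non-rel. for non-released cells. Open symbols are DMSO asynchronous replicate 3 and DMSO S-phase replicate 2. PCNA is higher in the Nutlin than in the DMSO libraries of each state. KIAA0101 and RFC4 are higher in the non-released and S-phase libraries than in the asynchronous libraries, except for RFC4 in DMSO S-phase replicate 2.

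PCNA was higher with Nutlin in all 3 states, without overlap between the groups. In asynchronous cells its log2 values were 12.56, 12.50 and 12.55 with Nutlin, against 12.13, 12.11 and 11.88 with DMSO. In non-released cells they were 13.10 and 13.24 with Nutlin, against 12.73 and 12.76 with DMSO. In S-phase cells they were 13.14 and 13.08 with Nutlin, against 12.36, 12.06 and 12.43 with DMSO. The lowest Nutlin library was above the highest DMSO library of the same state each time. Groups were apart in this direction for 8.49% of all genes tested in asynchronous cells, 20% in non-released and 13.8% in S-phase cells. Expressed per length, PCNA averaged 4005 ± 87 normalised reads per kb in Nutlin asynchronous cells and 2830 ± 271 in DMSO asynchronous cells (SD, n = 3 each).

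The difference passed the test in asynchronous and in S-phase cells. In asynchronous cells PCNA rose by 0.50 ± 0.10 on the log2 scale (SE; limma, adjusted p = 0.0155), and it was the only member called, where 2.45% of all genes tested were called and 1.91% were called higher. Without the libraries labelled DMSO asynchronous replicate 3 and DMSO S-phase replicate 2 the rise was 0.42 (adjusted p = 0.000959), where 6.21% of genes were called. With 1 Nutlin asynchronous library left out, the adjusted p was 0.0795 (replicate 1), 0.0569 (replicate 2) or 0.0594 (replicate 3). In S-phase cells PCNA rose by 0.83 ± 0.11 (adjusted p = 0.00096), again alone among the 9, where 2% of all genes were called and 1.84% were called higher. Without the 2 libraries the rise was 0.72 (adjusted p = 1.91e-05), where 3.94% of genes were called. The call was lost, at an adjusted p of 0.064, when only the 5 S-phase libraries entered the fit. In non-released cells the difference was 0.42 ± 0.12 (adjusted p = 0.186), and no member passed the test, where 0.916% of genes did. PCNA passed there without the 2 libraries (0.42, adjusted p = 0.00278, where 3.21% of genes were called) and without DMSO S-phase replicate 2 alone (adjusted p = 0.0426). Neither library is in the non-released groups. The difference therefore stayed the same, and the calls came from a smaller spread shared between the groups (SE 0.07 without the 2 libraries).

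The size of the PCNA response to Nutlin was not shown to depend on the state. The response in S-phase cells exceeded that in asynchronous cells by 0.33 ± 0.15 (adjusted p = 0.836) and that in non-released cells by 0.41 ± 0.17 (adjusted p = 0.999). That in non-released minus that in asynchronous cells was -0.08 (adjusted p = 1.00). No gene of the table passed the test of any of these 3 differences, 0% each, while 155 (non-released minus asynchronous), 787 (S-phase minus asynchronous) and 321 (S-phase minus non-released) had an unadjusted p under 0.05. Over the 6 groups PCNA was highest in Nutlin non-released cells, at 13.17 ± 0.10 (SD, n = 2), and Nutlin S-phase cells, at 13.11 ± 0.04 (n = 2), whose values overlapped. DMSO non-released cells followed at 12.74 ± 0.02 (n = 2) and Nutlin asynchronous cells at 12.54 ± 0.03 (n = 3). The lowest were DMSO S-phase cells at 12.28 ± 0.20 (n = 3) and DMSO asynchronous cells at 12.04 ± 0.14 (n = 3), which overlapped with each other.

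**Figure D2:**
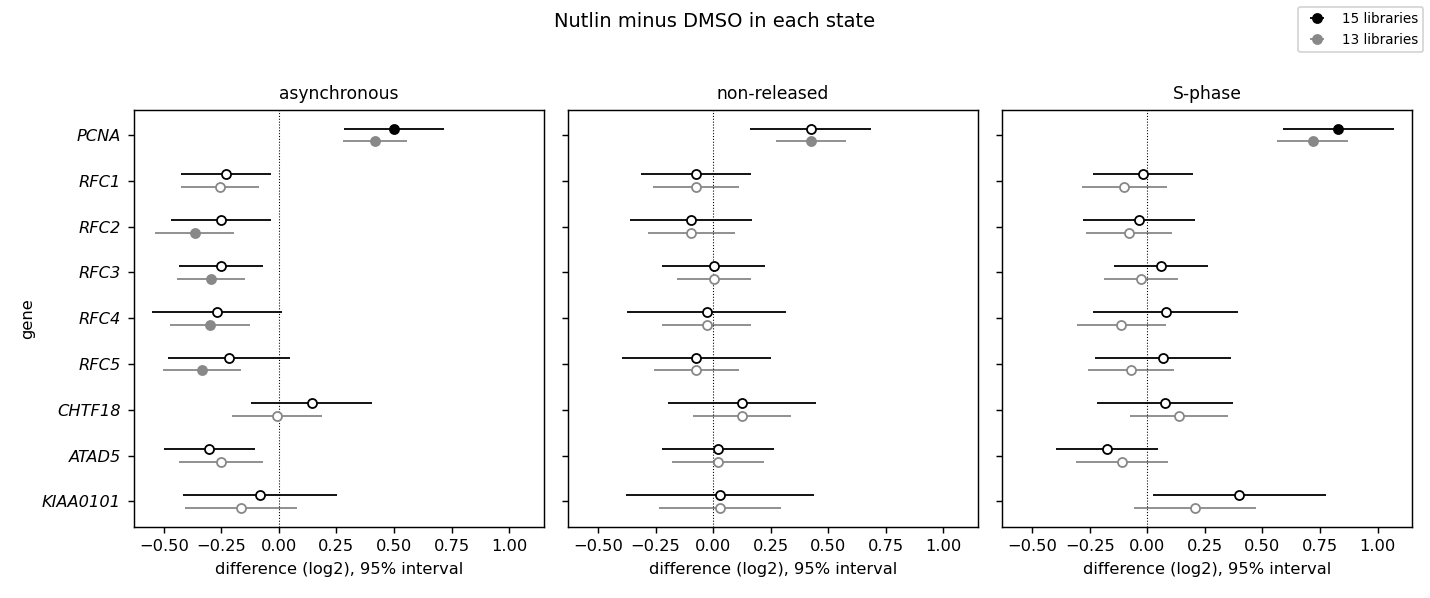
Difference between Nutlin and DMSO on the deposited log2 scale for each gene and state, with 95% intervals, from all 15 libraries (black) and from 13 (grey). Filled symbols have an adjusted p under 0.05. PCNA is to the right of 0 in each state, at 0.50, 0.42 and 0.83 with 15 libraries, and the replication factor C subunits lie between -0.27 and -0.22 in asynchronous cells with 15 libraries, where none is filled.

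No subunit of the loaders passed the test with Nutlin in asynchronous cells. There the large subunit RFC1 had log2 values of 11.60, 11.72 and 11.81 with Nutlin, against 11.96, 11.98 and 11.89 with DMSO. The groups did not overlap, and the difference was -0.23 ± 0.09 (adjusted p = 0.288). The small subunit RFC3 had 10.11, 10.22 and 10.24 with Nutlin, against 10.47, 10.50 and 10.36 with DMSO, also without overlap, a difference of -0.25 ± 0.09 (adjusted p = 0.19). RFC4 had 9.55, 9.76 and 9.75 with Nutlin, against 9.92, 10.06 and 9.89 with DMSO, without overlap (-0.27 ± 0.13, adjusted p = 0.453). The other 2 small subunits overlapped through the library labelled DMSO asynchronous replicate 3. RFC2 had 9.93, 10.16 and 10.08 with Nutlin, against 10.47, 10.37 and 10.08 with DMSO (-0.25 ± 0.10, adjusted p = 0.302). RFC5 had 10.03, 10.10 and 10.12 with Nutlin, against 10.44, 10.39 and 10.07 with DMSO (-0.22 ± 0.12, adjusted p = 0.548). No loader subunit passed the test with 15 libraries.

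Without the 2 libraries, all 4 small subunits passed. RFC2 fell by 0.37 (adjusted p = 0.0125), RFC3 by 0.29 (adjusted p = 0.0178), RFC5 by 0.33 (adjusted p = 0.0207) and RFC4 by 0.30 (adjusted p = 0.0426). RFC1 did not pass (adjusted p = 0.0727). With PCNA this made 5 of 9 members called, where 6.21% of all genes tested were called with these 13 libraries and 2.46% were called lower. RFC2 also passed without the library labelled DMSO asynchronous replicate 3 alone (adjusted p = 0.0445). That library was left out partly for its CDKN1A and MDM2 levels, so these asynchronous calls without it are a description only. In non-released and S-phase cells the 5 subunits differed by -0.09 to 0.08 with 15 libraries, and none was called with 15 or 13 libraries. In non-released cells RFC1, RFC2 and RFC5 were lower in both Nutlin libraries than in both DMSO libraries, as were 25.7% of all genes tested. Whether the Nutlin response of any of these subunits differed between states did not pass the test (adjusted p = 0.836 to 1.00).

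The alternative complexes showed no called difference with Nutlin. ATAD5, of the unloading complex, had log2 values of 10.09, 10.12 and 10.23 in Nutlin asynchronous cells, against 10.40, 10.39 and 10.55 in DMSO asynchronous cells. These groups did not overlap, and the difference was -0.30 ± 0.09 (adjusted p = 0.129; without the 2 libraries, adjusted p = 0.104). With RFC1, RFC3 and RFC4 it made 4 members lower in all Nutlin asynchronous libraries, as were 9.64% of all genes tested. In S-phase cells ATAD5 had 10.52 and 10.23 with Nutlin, against 10.51, 10.68 and 10.47 with DMSO, which overlapped (-0.17 ± 0.10, adjusted p = 0.499). CHTF18, of the cohesion-linked loader, had 9.98, 9.92 and 9.96 in Nutlin asynchronous cells, against 9.97, 9.95 and 9.51 in DMSO asynchronous cells. The low value was that of the library labelled DMSO asynchronous replicate 3, and the difference of 0.14 ± 0.12 (adjusted p = 0.761) became -0.01 without it. Over the 9 members the median difference was -0.23 in asynchronous cells, 0.00 in non-released cells and 0.07 in S-phase cells, where the medians over all genes tested were -0.02, -0.02 and -0.01.

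KIAA0101, the PCNA-associated factor, showed no called response to Nutlin. In asynchronous cells it had log2 values of 11.08, 11.14 and 11.13 with Nutlin, against 11.35, 11.22 and 11.04 with DMSO, which overlapped (-0.08 ± 0.16, adjusted p = 0.94). In non-released cells it had 12.29 and 12.21 with Nutlin, against 12.36 and 12.09 with DMSO, with the Nutlin libraries between the DMSO libraries (0.03, adjusted p = 0.999). In S-phase cells it had 12.39 and 11.91 with Nutlin, against 11.95, 11.36 and 11.93 with DMSO. The lowest of these was DMSO S-phase replicate 2, and the difference of 0.40 ± 0.17 (adjusted p = 0.355) was 0.21 without the 2 libraries. The response in S-phase cells exceeded that in asynchronous cells by 0.48 ± 0.23 (adjusted p = 0.836).

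Cells held in the thymidine block had higher transcript levels of the clamp, its partner and 1 loader subunit. In DMSO non-released against DMSO asynchronous cells, KIAA0101 rose by 1.02 ± 0.17 (adjusted p = 0.000682), PCNA by 0.70 ± 0.11 (adjusted p = 0.000417) and RFC4 by 0.66 ± 0.15 (adjusted p = 0.00391). These were 3 of the 9 members, and 33.9% of all genes tested were called in this comparison and 16.9% were called higher. RFC4 had log2 values of 10.58 and 10.65 in DMSO non-released cells, against 9.92, 10.06 and 9.89 in DMSO asynchronous cells. All 3 genes were without overlap, as were RFC2, RFC3 and RFC5, and 28.7% of all genes tested were apart in this direction. RFC5 differed by 0.34 ± 0.14 (adjusted p = 0.0751). It passed without the 2 libraries (0.22, adjusted p = 0.0486, where 47.8% of genes were called). It also passed without DMSO S-phase replicate 2 alone (adjusted p = 0.0238), a library outside this comparison that enters only the shared spread. RFC2 differed by 0.27 ± 0.11 (adjusted p = 0.0766), which passed only without DMSO asynchronous replicate 1 among the libraries left out singly (0.36, adjusted p = 0.0325). RFC1, RFC3, CHTF18 and ATAD5 had differences of 0.01 to 0.17, and none passed.

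After release the DMSO means of KIAA0101, PCNA and RFC4 lay between those of the other states. In DMSO S-phase against DMSO asynchronous cells, KIAA0101 rose by 0.55 ± 0.16 (adjusted p = 0.0192), the only member called, where 27.7% of all genes tested were called and 14.1% were called higher. All of its DMSO S-phase values, 11.95, 11.36 and 11.93, were above its DMSO asynchronous values, as held for 17.9% of genes. Left out singly, the library labelled DMSO asynchronous replicate 3 gave an adjusted p of 0.0509. It was 0.0783 without DMSO S-phase replicate 1 and 0.0596 without DMSO S-phase replicate 3. Without the 2 libraries that stand apart, KIAA0101 rose by 0.66 (adjusted p = 0.00141), PCNA by 0.27 (adjusted p = 0.0104) and RFC4 by 0.38 (adjusted p = 0.00616), where 31.6% of genes were called. With 15 libraries PCNA differed by 0.24 ± 0.10 (adjusted p = 0.0871) and RFC4 by 0.22 ± 0.13 (adjusted p = 0.233). Both had their lowest DMSO S-phase value, 12.06 and 9.79, in DMSO S-phase replicate 2, and passed without that library alone (PCNA 0.35, adjusted p = 0.00973; RFC4 0.41, adjusted p = 0.00467).

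In DMSO S-phase against DMSO non-released cells, PCNA fell by 0.46 ± 0.11 (adjusted p = 0.0243), with 12.36, 12.06 and 12.43 in S-phase cells against 12.73 and 12.76 in non-released cells. It was the only member called, where 6.99% of all genes tested were called and 2.89% were called lower. The fall was 0.35 without the 2 libraries (adjusted p = 0.00508), where 14.2% of genes were called. The adjusted p was 0.151 without DMSO non-released replicate 1 and 0.188 without DMSO non-released replicate 2. RFC4 differed by -0.44 ± 0.15 (adjusted p = 0.0916; without DMSO S-phase replicate 3, -0.56 and adjusted p = 0.0359), KIAA0101 by -0.47 ± 0.17 (adjusted p = 0.127) and RFC5 by -0.26 ± 0.14 (adjusted p = 0.302). PCNA, KIAA0101, RFC2, RFC4 and RFC5 were lower in all 3 S-phase libraries than in both non-released libraries, as were 20.1% of all genes tested.

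**Figure D3:**
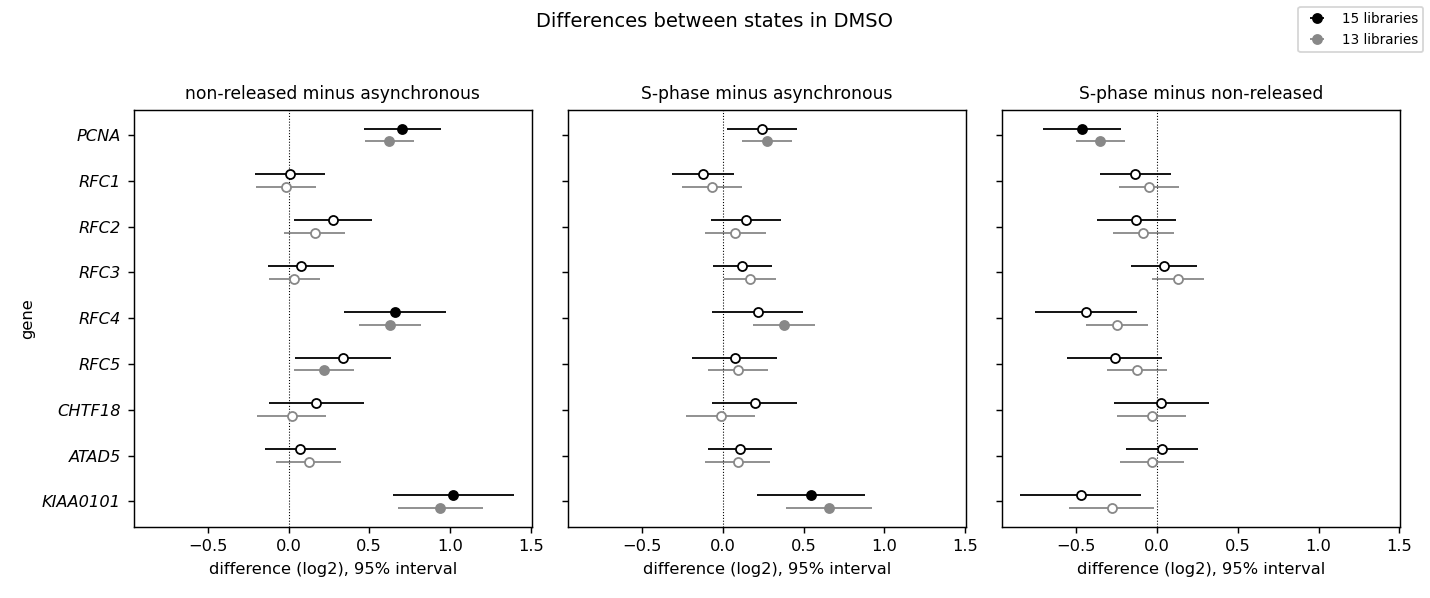
Difference between cell cycle states in DMSO on the deposited log2 scale for each gene, with 95% intervals, from all 15 libraries (black) and from 13 (grey). Filled symbols have an adjusted p under 0.05. In the comparison of non-released with asynchronous cells KIAA0101, PCNA and RFC4 are filled, at 1.02, 0.70 and 0.66 with 15 libraries.

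The balance between clamp and loader transcripts was then set out within each library, where sequencing depth cancels. PCNA over the mean of RFC1 to RFC5, both in normalised reads per kb, was 8.66, 7.43 and 7.65 in Nutlin asynchronous cells, against 4.75, 4.67 and 4.56 in DMSO asynchronous cells. It was 8.45 and 9.04 in Nutlin non-released cells, against 6.18 and 6.31 in DMSO non-released cells. It was 8.89 and 9.39 in Nutlin S-phase cells, against 5.22, 5.18 and 5.21 in DMSO S-phase cells. Every library labelled Nutlin was above every library labelled DMSO. The library labelled DMSO asynchronous replicate 3 counts as DMSO here by its label alone, as its CDKN1A and MDM2 levels were like those with Nutlin. Its PCNA log2 value, 11.88, was nevertheless the lowest of all libraries. The reason was not tested. KIAA0101 over PCNA averaged 0.239 in Nutlin and 0.36 in DMSO asynchronous cells, 0.344 in Nutlin and 0.454 in DMSO non-released cells, and 0.335 in Nutlin and 0.449 in DMSO S-phase cells. These ratios restate the values above and were given no test.

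**Figure D4:**
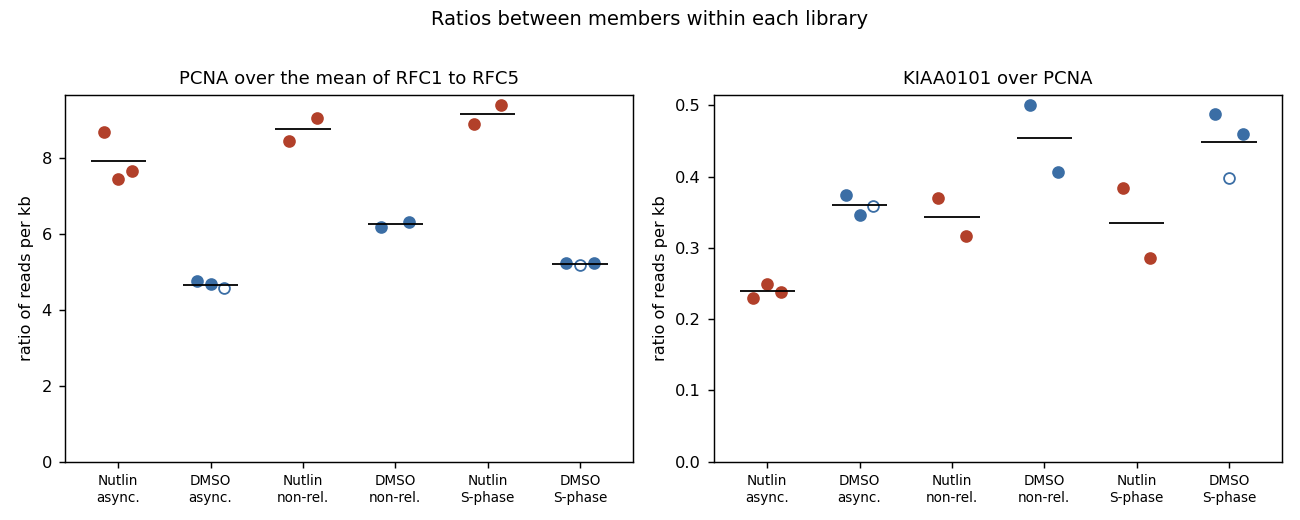
Ratio of PCNA to the mean of RFC1 to RFC5, and of KIAA0101 to PCNA, in normalised reads per kb of exon in each library (points, Nutlin in red, DMSO in blue) with group means (lines); async. stands for asynchronous and non-rel. for non-released, and open symbols are the 2 libraries that stand apart. The Nutlin libraries lie between 7.43 and 9.39 in the first ratio and the DMSO libraries between 4.56 and 6.31.

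The members also differed in which of them varied together over the 15 libraries, which share 6 groups and 2 treatments. RFC5 correlated with RFC4 (Pearson r = 0.915) and RFC2 (r = 0.914), and RFC4 with KIAA0101 (r = 0.901). ATAD5 had an r of 0.501 with RFC5 and 0.669 with RFC2, which were 0.949 and 0.918 over the 13 libraries. PCNA correlated with KIAA0101 (r = 0.740) and with RFC4 (r = 0.580), and with RFC1 the r was -0.01. The genes outside the set whose pattern was most like that of PCNA were CEP76 (r = 0.969), TFEC (r = 0.966), GPR172B (r = 0.958), SCN2A (r = 0.956) and ITIH5 (r = 0.954). The mean of RFC2 to RFC5 was most like PRIM1, a primase subunit (r = 0.980), CDC6, which loads the replicative helicase (r = 0.975), and FEN1 (r = 0.961). KIAA0101 was most like NNT (r = 0.989), ESCO2, a cohesin acetyltransferase (r = 0.983), and SNX10 (r = 0.982). ATAD5 was most like USP13 (r = 0.912), MCM6 of the replicative helicase (r = 0.885) and LGI2 (r = 0.867). CHTF18 was most like MFAP2 (r = 0.889), DGAT1 (r = 0.883) and PTPRN (r = 0.868), which rested in part on the library labelled DMSO asynchronous replicate 3 or DMSO S-phase replicate 2, as MFAP2 had an r of 0.671 without them. These are descriptions over libraries that share their groups, and no test was made.

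The genes around the clamp were counted in 4 lists. Of 15 other PCNA-binding proteins, 3 fell with Nutlin in asynchronous cells, among them the mismatch repair protein MSH6 (-0.67, adjusted p = 0.000618) and the uracil glycosylase UNG (-0.57, adjusted p = 0.0108). Of 10 genes of the PCNA ubiquitin cycle, DTL, which recognises PCNA-bound substrates for a ubiquitin ligase, fell by 0.50 (adjusted p = 0.00977). The UNG and DTL calls were lost without Nutlin asynchronous replicate 1 (adjusted p = 0.0731 and 0.0714) and without DMSO asynchronous replicate 2 (adjusted p = 0.0639 and 0.0557). They were also lost with only the groups compared. Of all genes tested, 0.546% were called lower there. None of the 10 lagging-strand enzymes and none of the 7 tested of 8 other clamps and loaders passed with 15 libraries. Without the 2 libraries that stand apart, where 6.21% of genes were called, 3 lagging-strand enzymes fell, among them the flap nuclease FEN1 (-0.33, adjusted p = 0.00554) and the polymerase delta subunit POLD3 (-0.39, adjusted p = 0.00939). The checkpoint clamp subunit RAD1 also fell (-0.25, adjusted p = 0.0426), as did 4 PCNA-binding proteins and 2 genes of the ubiquitin cycle, DTL and the deubiquitinase USP1 (-0.42, adjusted p = 0.00764).

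In non-released and S-phase cells no gene of the 4 lists passed with Nutlin with 15 libraries. MSH6 fell in non-released cells without the 2 libraries (-0.39, adjusted p = 0.0142). Neither of these is in the non-released groups, and with 15 libraries the difference was also -0.39 (adjusted p = 0.156). CDKN1A is in the list of PCNA-binding proteins. With 15 libraries it differed by 1.22 in asynchronous (adjusted p = 0.305), 1.44 in non-released (adjusted p = 0.597) and 2.00 in S-phase cells (adjusted p = 0.0927). The fit gives each gene a shared variance over all 6 groups. The CDKN1A spread of DMSO asynchronous cells (log2 values of 11.47, 11.45 and 14.10) therefore enters each of these tests. Its non-released values were 13.91 and 13.96 with Nutlin, against 12.44 and 12.53 with DMSO. Its S-phase values were 13.87 and 14.17 with Nutlin, against 12.12, 11.77 and 12.18 with DMSO. Without the 2 libraries CDKN1A was higher with Nutlin by 2.10 (asynchronous), 1.44 (non-released) and 1.87 (S-phase), and it counted as called in each state. As it helped to set 1 of the 2 libraries apart, these calls are a description only.

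Enzymes of the lagging strand also rose under the block. In DMSO non-released against DMSO asynchronous cells 6 of these 10 rose and none fell with 15 libraries, where 16.9% of all genes tested were called higher and 17% lower, with the DNA ligase LIG1 (0.56, adjusted p = 0.000374) and the flap nuclease DNA2 (0.61, adjusted p = 0.000383) at the smallest p, and the median over the list was 0.36. With 13 libraries 6 rose and 1 fell, the polymerase delta subunit POLD2 (-0.33, adjusted p = 0.00574), where 47.8% of genes were called. Of the PCNA-binding proteins 1 rose, the licensing factor CDT1 (0.45, adjusted p = 0.0449), a call that was lost in 12 of 22 alternatives, with an adjusted p of 0.0141 to 0.297 over all of them and of 0.114 without the library labelled DMSO asynchronous replicate 3. CDT1 also did not pass without the 2 libraries, where CDKN1A alone of this list was called higher and WRN alone lower (-0.23, adjusted p = 0.0351). The clamp loader subunit DSCC1 (0.33, adjusted p = 0.0181) rose and HUS1 (-0.35, adjusted p = 0.0468) fell there, while none in the list of other clamps and loaders passed with 15 libraries. Of the ubiquitin cycle 2 rose and 2 fell with 15 libraries, and 3 rose and 2 fell without the 2. The translocase HLTF rose by 0.36 (adjusted p = 0.0272) and DTL by 0.33 (adjusted p = 0.0272, a call lost with only the groups compared and with centring). The ubiquitin-conjugating enzyme UBE2N fell by 0.53 (adjusted p = 0.00598) and the PCNA ubiquitin ligase RAD18 by 0.42 (adjusted p = 0.00674). Without DMSO non-released replicate 2 none of these 4 passed, with adjusted p of 0.109 (HLTF), 0.0912 (DTL), 0.0641 (UBE2N) and 0.102 (RAD18). Without DMSO non-released replicate 1 HLTF (adjusted p = 0.134) and DTL (adjusted p = 0.158) did not pass, HLTF did not pass without DMSO asynchronous replicate 1 (adjusted p = 0.0639) or 2 (adjusted p = 0.062), and DTL did not without replicate 3 (adjusted p = 0.0718).

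In DMSO S-phase against DMSO asynchronous cells 2 lagging-strand enzymes were still higher, LIG1 (0.44, adjusted p = 0.00153) and RNASEH2A, the catalytic subunit of an RNase that removes RNA from DNA (0.51, adjusted p = 0.00328), where 14.1% of all genes tested were called higher and 13.6% lower. Lower in S-phase cells were 3 PCNA-binding proteins, among them UNG (-0.41, adjusted p = 0.0141) and the thymine glycosylase TDG (-0.33, adjusted p = 0.0438), the ubiquitin ligase SHPRH (-0.28, adjusted p = 0.0215) and the checkpoint clamp subunit HUS1 (-0.40, adjusted p = 0.0218). TDG differed by -0.21 (adjusted p = 0.14) when the library labelled DMSO asynchronous replicate 3 was left out. It kept its call, among the 15 fits that left out 1 library, only without DMSO asynchronous replicate 1 (adjusted p = 0.0192), Nutlin S-phase replicate 1 (adjusted p = 0.0462) or Nutlin S-phase replicate 2 (adjusted p = 0.0463). UNG (adjusted p = 0.0575) and SHPRH (adjusted p = 0.0657) lost theirs without DMSO asynchronous replicate 2, SHPRH also without DMSO S-phase replicate 1 (adjusted p = 0.0811), and HUS1 without DMSO asynchronous replicate 1 (adjusted p = 0.0821). With only the groups compared, RNASEH2A (adjusted p = 0.0662), UNG, SHPRH, HUS1 and TDG lost their calls. With 13 libraries, where 31.6% of genes were called, 4 lagging-strand enzymes were higher and POLD2 was lower (-0.31, adjusted p = 0.0144). Of the PCNA-binding proteins UNG alone was then lower and CDKN1A higher. In the ubiquitin cycle UBE2A was then higher (0.31, adjusted p = 0.00985) and SHPRH lower. Of the other clamps and loaders, DSCC1 was then higher (0.51, adjusted p = 0.00288), and HUS1 and HUS1B (-0.40, adjusted p = 0.0413) were lower.

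In DMSO S-phase against DMSO non-released cells 1 gene of the 4 lists passed, DNA2, which fell by 0.40 (adjusted p = 0.0242), where 6.99% of all genes tested were called. DNA2 lost this call with only the groups compared. Its adjusted p was 0.145 without DMSO non-released replicate 1 and 0.193 without replicate 2. With 13 libraries, where 14.2% of genes were called, 5 genes of the lists passed. DNA2 (-0.30, adjusted p = 0.0168), MSH6 (-0.27, adjusted p = 0.0448), DTL (-0.32, adjusted p = 0.037) and CDKN1A (-0.34, adjusted p = 0.0233) fell, and UBE2N rose (0.37, adjusted p = 0.0093).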

How the data were processed

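RNA-seq of 15 libraries labelled U2OS was used. The library labelled DMSO asynchronous replicate 3 differed from the others in its epithelial and luminal breast marker levels. The authors deposited variance-stabilised values, on a log2 scale, as 1 table of 23368 genes. Tools listed in the submitters' processing notes are DESeq2 1.10.1, HTSeq, TopHat 0.9 and CASAVA 1.8.2, with the build hg19. What each did beyond demultiplexing with CASAVA, which the labels' protocols state, and the annotation, strand and options used are not given in the sources used here. Per the labels' protocols, 1000 ng of total RNA entered each library and sequencing gave single 50 nt reads.

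The values compress differences between genes with few reads. They were inverted to reads from the shared lowest value of 4.859, that of 0 reads, with 1 factor per library; 99.04 to 99.99% of values per library came out within 0.05 of a whole read. Depth was 6.05 to 23.38 M reads (median 15.93). Normalised reads are these reads divided by that factor, and levels per kb use the union of exons of protein-coding transcripts in GENCODE v29. Promoters and current symbols came from RefSeq (GRCh38.p14), and no coordinate of the deposited table was used.

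The test was limma 3.58.1 (R 4.3.3), fitted to all 15 libraries with a mean for each of the 6 groups. Its eBayes step used a mean-variance trend, which gave 4.66 prior degrees of freedom. P-values are two-sided, with Benjamini-Hochberg adjustment over the 14298 genes tested (at least 2 libraries 1 unit above the lowest value) within each of 9 comparisons, and adjusted p under 0.05 counted as called. Rose, fell and passed refer to such calls. A lone library in a group after leaving one out is assumed to vary like the other groups. The model was checked on simulated data with 1 setting of the spread for all genes and no library that stands apart. That check therefore does not cover the libraries that stand apart here. Alternatives were reads with voom, other filters, only the groups compared, a replicate block, centring, each library left out and, chosen after seeing the data, both libraries that stand apart left out.

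All 9 members are named. Other genes come from 4 lists, with values for at most 2 of the smallest p per list and direction; like patterns are the 5 (PCNA) or 3 genes of highest r. Members and lists were chosen with earlier results of these data known.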

Additional observations from a re-analysis of the deposited data

How the results depend on the processing

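Over 81 member differences and 22 alternatives each, the sign changed in 60 of 1782 values, none of them called with or without the alternative, and none beyond 0.145 in size. Among the printed ones CHTF18 with Nutlin in asynchronous cells ran from -0.00917 to 0.22 over single libraries left out and was -0.00917 without both libraries that stand apart. The PCNA response of non-released minus asynchronous cells ran from -0.15 to 0.0052 over single libraries left out and was 0.0052 without both. KIAA0101 with Nutlin in non-released cells ran from -0.10 to 0.16 over single libraries left out. PCNA with Nutlin kept a positive difference in every alternative, from 0.42 to 0.54 in asynchronous, 0.35 to 0.49 in non-released and 0.72 to 0.90 in S-phase cells. The 17 differences of named list genes kept their sign, with 318 values on the same side of the threshold and 56 calls lost.

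Counts over all genes moved more. Genes called with Nutlin in asynchronous cells were 351, and 202 with only the groups compared, 888 without both libraries and 170 to 525 with a single library left out. In non-released cells they were 131, and 227 with voom on the reads, 637 with only the groups compared, 459 without both libraries and 22 to 274 with a single library left out. In S-phase cells they were 286, and 99, 563 and 88 to 466 under the last 3 of these. Between responses, no filter on low values called 34 (non-released minus asynchronous), 3 (S-phase minus asynchronous) and 32 (S-phase minus non-released), and leaving out both libraries called 3 in the first. In DMSO, genes called were 2400 to 5850 (non-released against asynchronous) with a single library left out, 1010 (S-phase against asynchronous) with only the groups compared, and 335, 2028 and 233 to 1410 (S-phase against non-released) with only the groups compared, without both libraries and with a single library left out.

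Members called with Nutlin were 5 in asynchronous cells without both libraries and 0 to 2 with a single library left out. In non-released cells they were 1 with only the groups compared and 1 without both, and 0 to 1 with a single library left out. In S-phase cells they were 0 with only the groups compared. In DMSO, S-phase against asynchronous, they were 0 without a filter on low values, 0 with only the groups compared, 3 without both libraries and 0 to 3 with a single library left out. S-phase against non-released, they were 0 with only the groups compared and 0 to 2 with a single library left out. Without both libraries, 6.21% of all genes tested were called with Nutlin in asynchronous cells and 3.21% in non-released cells. In DMSO S-phase against asynchronous cells 31.6% were called, much the same share as 3 of the 9 members. Counts over all genes with only the groups compared are those given above, out of 14298. The cause was not tested.

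Replicate numbers are shared between groups, and the labels do not say that a number marks a shared culture or day. They were not taken to pair the libraries. Of 33 same-numbered pairs 20 correlated above 0.1 in their deviations (median 0.149, from -0.284 to 0.481), and 10 of 15 libraries correlated best with their own number. These counts run over all states and cannot decide whether a number pairs libraries within a state. As a hint from the data and not the design, the 7 pairs of a Nutlin and a DMSO library of 1 state all had a positive correlation (0.0744 to 0.351). Of these, 6 were above 0.1, and the lowest held the library labelled DMSO asynchronous replicate 3. Deviations in a group of 2 libraries mirror each other, so same-numbered pairs between 2 such groups repeat the same r. Both non-released pairs thus have an r of 0.325, and the counts above take such repeats as separate. With the replicate number as a block, genes called with Nutlin were 397 in asynchronous, 166 in non-released and 324 in S-phase cells, and in DMSO 4985, 4346 and 1347 for the 3 state comparisons in the order of the plot of state differences. Members called were 1, 0 and 1 with Nutlin and 3, 1 and 1 between states, each as without the block, and no gene passed for the differences between responses. The block held 1 effect per number, shared by all states. A pairing of Nutlin with DMSO libraries within a state was not fitted. The shallowest library, at 6.05 M reads, still gave each member at least 313 reads.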
